A study of Arabidopsis thaliana with 27 samples.

Results

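The 10 genes described here stand at the junction of the flowering pathways of Arabidopsis thaliana. They are the integrators SOC1 (AT2G45660), FT (AT1G65480) and TSF (AT4G20370), and the MADS-box genes FUL (AT5G60910), AGL24 (AT4G24540) and SEP3 (AT1G24260) that act with or after them. The others are the RAV-type repressors TEM1 (AT1G25560) and TEM2 (AT1G68840) and the AP2-type repressors SMZ (AT3G54990) and SNZ (AT2G39250). They were chosen by locus identifier, and all 10 were found among the 32678 identifiers of every library. FT and TSF are mobile signals made in phloem companion cells, and SOC1 is a MADS-box switch on which several pathways meet. FLC and SVP repress FT and SOC1, the TEM proteins repress FT, and SMZ and SNZ are AP2 relatives that delay flowering and are targets of the microRNA miR172.

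RNA of whole seedlings grown for a week in short days (8 h light, 16 h dark, 22 °C) was sequenced in 27 libraries, 3 for each of 9 groups. Wild type Col-0, the single mutants vil1-1 and cop1-4, and the combined mutant vil1-1cop1-4 were each sampled at ZT0, the end of the night, and at ZT6, after 6 h of light. The mutant hy5-215 was sampled at ZT0 only, and no treatment other than the day length is given for any group. VIL1 is a PHD-finger partner of Polycomb repressive complex 2, COP1 is a ubiquitin ligase that removes light-signalling factors in the dark, and HY5 is a transcription factor that COP1 removes. Each gene is represented by a single mutant allele, and cop1-4 is known as a partial, viable allele.

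Gene reads numbered 19.7 M to 33.6 M per library. VIL1 stood at 5.12 to 5.93 CPM (counts per 1 M reads on TMM-scaled library sizes, mean of 3) in the 4 groups with vil1-1 and at 15.5 to 23.1 in the others. COP1 and HY5 transcripts were still read in their mutants, at 20.8 to 48.1 CPM of COP1 in the 4 groups with cop1-4 and 14.5 ± 0.111 of HY5 in hy5-215, so these levels check those labels only in part. The labels name no batch, and hy5-215 was registered apart from the other libraries, so its genotype and any batch cannot be told apart. No label says that replicates came from separate cultures, so the spread behind the p-values is that of these samples and may be technical. In RNA of whole seedlings, fewer cells of a type and less RNA per cell cannot be told apart. Of the seedling markers, those of mesophyll summed to 13800 to 35400 CPM, those of root to 25.8 to 98.6 and those of phloem to 213 to 351 over all libraries. Of the 4 shoot meristem markers, STM and KNAT1 carried nearly all the reads, with WUS at 0 in vil1-1 at ZT0 and CLV3 at 0 in cop1-4 at ZT6.

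SMZ and SNZ share a target sequence that TEM1 and TEM2 lack. The best match to miR172a was read from the RefSeq annotation of TAIR10.1 for each gene, and 2 AP2-type relatives are shown for comparison. In miR172a the capitals mark the seed (bases 2 to 8), and in the sites, printed 5′ to 3′ on the gene's strand, they mark bases complementary to it, with G:U pairs counted as mismatches.

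miR172a (chr2:11942918-11942938, minus strand): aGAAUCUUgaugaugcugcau
SMZ (chr3:20373774-20373794, minus strand, coding sequence): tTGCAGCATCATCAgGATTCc
SNZ (chr2:16389066-16389086, minus strand, coding sequence): tTGtAGCATCATCAgGATTCc
AP2 (chr4:17403019-17403039, plus strand, coding sequence): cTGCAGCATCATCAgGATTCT
TOE3 (chr5:26802175-26802195, minus strand, coding sequence): tgGCAGCATCATCAgGATTCT

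The SMZ site had 3 mismatches and the SNZ site 4, against 2 in AP2 and 3 in TOE3, with 1 of them in the seed in each. The best matches in TEM1 and TEM2 each had 8 mismatches. The MIR172a and MIR172b loci, looked up after values were seen, held 0 to 2 reads per library, so the microRNA itself was not measured.

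TEM1 and TEM2 lie on the same chromosome but on opposite strands. Their promoters are shown because the levels of the pair moved together (below), from 250 bases before to 50 bases after the start of each gene in TAIR10.1. Capitals mark ACGT, the core that bZIP factors such as HY5 bind.

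TEM1 (chr1:8983265-8983564, minus strand): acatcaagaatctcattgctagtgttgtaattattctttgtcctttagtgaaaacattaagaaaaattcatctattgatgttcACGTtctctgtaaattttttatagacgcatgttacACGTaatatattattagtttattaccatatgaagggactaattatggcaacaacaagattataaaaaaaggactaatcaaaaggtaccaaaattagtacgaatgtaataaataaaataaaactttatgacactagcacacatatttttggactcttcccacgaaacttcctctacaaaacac
TEM2 (chr1:25879905-25880204, plus strand): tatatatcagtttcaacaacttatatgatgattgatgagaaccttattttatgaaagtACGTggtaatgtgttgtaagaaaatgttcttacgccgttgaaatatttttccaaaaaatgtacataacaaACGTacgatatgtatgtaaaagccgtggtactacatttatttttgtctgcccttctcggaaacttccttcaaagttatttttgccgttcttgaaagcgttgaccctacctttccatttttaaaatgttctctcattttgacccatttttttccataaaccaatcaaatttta

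Counted from the start of the gene, ACGT began at −167 and −132 in TEM1 and at −192 and −122 in TEM2. It was searched on both strands and occurs in 49.9% of 27443 promoters of this length, so its presence sets neither gene apart. Neither window held the G-box CACGTG (7.68% of promoters), the evening element AAAATATCT (2.82%), the CCA1 site AAAAATCT (7.88%) or a CArG box (3.05%). The G-box contains the ACGT core. Of the other members, SOC1 held the CCA1 site at −163 and SEP3 the evening element at −113. These matches describe the letters in the windows only.

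Per kilobase of exon, the members fell into an abundant and a scarce set of 5 each. Averaged over the 9 groups, TEM2 stood at 56.4 reads per kilobase per 1 M reads (RPKM), TEM1 at 52.9, SMZ at 16.6, SNZ at 12.8 and SOC1 at 6.8. SEP3 stood at 0.632, AGL24 at 0.346, FT at 0.237, TSF at 0.118 and FUL at 0.0161. TSF and FUL did not pass the filter on low counts and were not tested, which left 8 of 10 members among the 21448 genes tested. The pairs of near relatives shared few 30-base stretches of transcript, 3 of 1730 between TEM1 and TEM2 and 0 both between SMZ and SNZ and between FT and TSF. SMZ overlaps a protein-coding gene on the opposite strand, AT3G54980, and no source used here gives the strand setting of the counting, so its counts are uncertain to that extent.

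**Figure D1:**
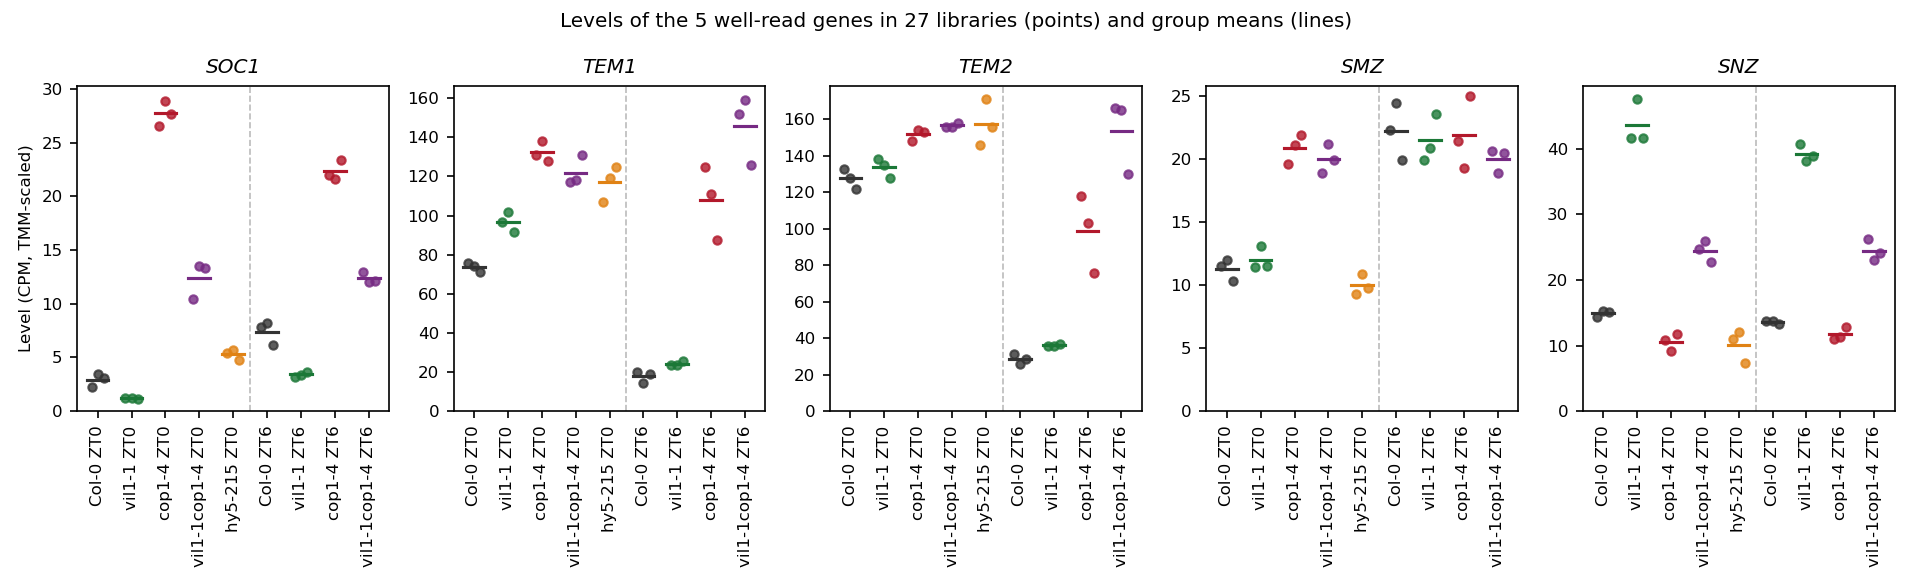
Level of SOC1, TEM1, TEM2, SMZ and SNZ in CPM on TMM-scaled library sizes (y axis, from 0, a separate scale per gene) in each of 27 libraries (points) by group (x axis), with the group mean as a line and ZT0 groups left of the dashed line. SOC1 is highest in cop1-4 (26.6 to 28.9 CPM at ZT0), SNZ in vil1-1 (41.6 to 47.6 at ZT0), and TEM1 and TEM2 are low only at ZT6 in Col-0 and vil1-1.

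SOC1, which promotes flowering through LFY and other targets, had its highest levels in cop1-4 and its lowest in vil1-1. In CPM, the 3 libraries of ZT0 stood at 2.28, 3.44 and 3.05 in Col-0, 1.18, 1.19 and 1.15 in vil1-1, 26.6, 28.9 and 27.7 in cop1-4 and 10.4, 13.5 and 13.3 in vil1-1cop1-4. The 4 groups did not overlap. At ZT6 they stood at 7.85, 8.18 and 6.17 in Col-0, 3.21, 3.36 and 3.66 in vil1-1, 22, 21.6 and 23.4 in cop1-4 and 13, 12 and 12.1 in vil1-1cop1-4, again without overlap. In the order of the 9 group means, vil1-1cop1-4 at ZT0 and at ZT6 overlapped, as did vil1-1 at ZT6 and Col-0 at ZT0, and all other neighbours were apart.

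Against Col-0, SOC1 rose 9.52-fold in cop1-4 at ZT0 (log2 change 3.25 ± 0.12 SE, edgeR adjusted p = 7.7e-26) and 3.03-fold at ZT6 (1.60 ± 0.11, edgeR adjusted p = 7.2e-17). In vil1-1cop1-4 it rose 4.28-fold at ZT0 (2.1 ± 0.13, edgeR adjusted p = 2.8e-18) and 1.68-fold at ZT6 (0.75 ± 0.11, edgeR adjusted p = 1.1e-07). In vil1-1 it fell against Col-0, with log2 changes at ZT0 and ZT6 of −1.30 ± 0.18 and −1.11 ± 0.13 (edgeR adjusted p = 1.3e-06 and 1.2e-08). Set on the cop1-4 background, the same allele gave −1.15 ± 0.10 and −0.85 ± 0.10 against cop1-4 (edgeR adjusted p = 3.4e-11 and 5e-08). The differences between the 2 backgrounds, 0.15 ± 0.21 and 0.26 ± 0.16, did not pass the test (edgeR adjusted p = 0.75 and 0.32).

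Of the known repressors of SOC1, FLC and MAF4 rose with vil1-1 on the Col-0 background, and MAF5 rose on both backgrounds. FLC stood at 13.8 ± 1.16 CPM (SD, n = 3) in Col-0, 22.5 ± 1.27 in vil1-1, 13.4 ± 0.45 in cop1-4 and 14 ± 1.04 in vil1-1cop1-4 at ZT0. Against Col-0 its log2 changes in vil1-1 at ZT0 and ZT6 were 0.70 ± 0.09 and 0.88 ± 0.10 (edgeR adjusted p = 2.1e-07 and 3e-09). Between vil1-1cop1-4 and cop1-4 it was 0.06 ± 0.10 and −0.04 ± 0.10 (edgeR adjusted p = 0.72 and 0.83). The difference of the differences passed the test for FLC at both times (−0.63 ± 0.13 and −0.92 ± 0.14, edgeR adjusted p = 0.0013 and 5.7e-06) and for its relative MAF4 (−1.03 ± 0.23 and −1.49 ± 0.24, edgeR adjusted p = 0.0021 and 1.9e-05). MAF4 was itself higher in cop1-4 than in Col-0 at ZT0 and ZT6 (1.73 ± 0.17 and 1.77 ± 0.18, edgeR adjusted p = 4.5e-12 and 2.1e-11), where SOC1 was also higher. MAF5, another gene of the FLC family, was higher with vil1-1 on both backgrounds, by 0.91 ± 0.26 and 2.33 ± 0.26 in vil1-1cop1-4 against cop1-4 (edgeR adjusted p = 0.012 and 5.6e-09). SVP, the partner of FLC, was higher in cop1-4 than in Col-0 at ZT0 (0.84 ± 0.07, edgeR adjusted p = 1.9e-13), where SOC1 was also higher. In vil1-1 at ZT0 SVP was lower than in Col-0 (−0.53 ± 0.08, edgeR adjusted p = 2.4e-06), as SOC1 was. FLC has known antisense transcripts and MAF4 and MAF5 are neighbours of one gene family whose shared sequence was not measured here, so their counts are uncertain to that extent.

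**Figure D2:**
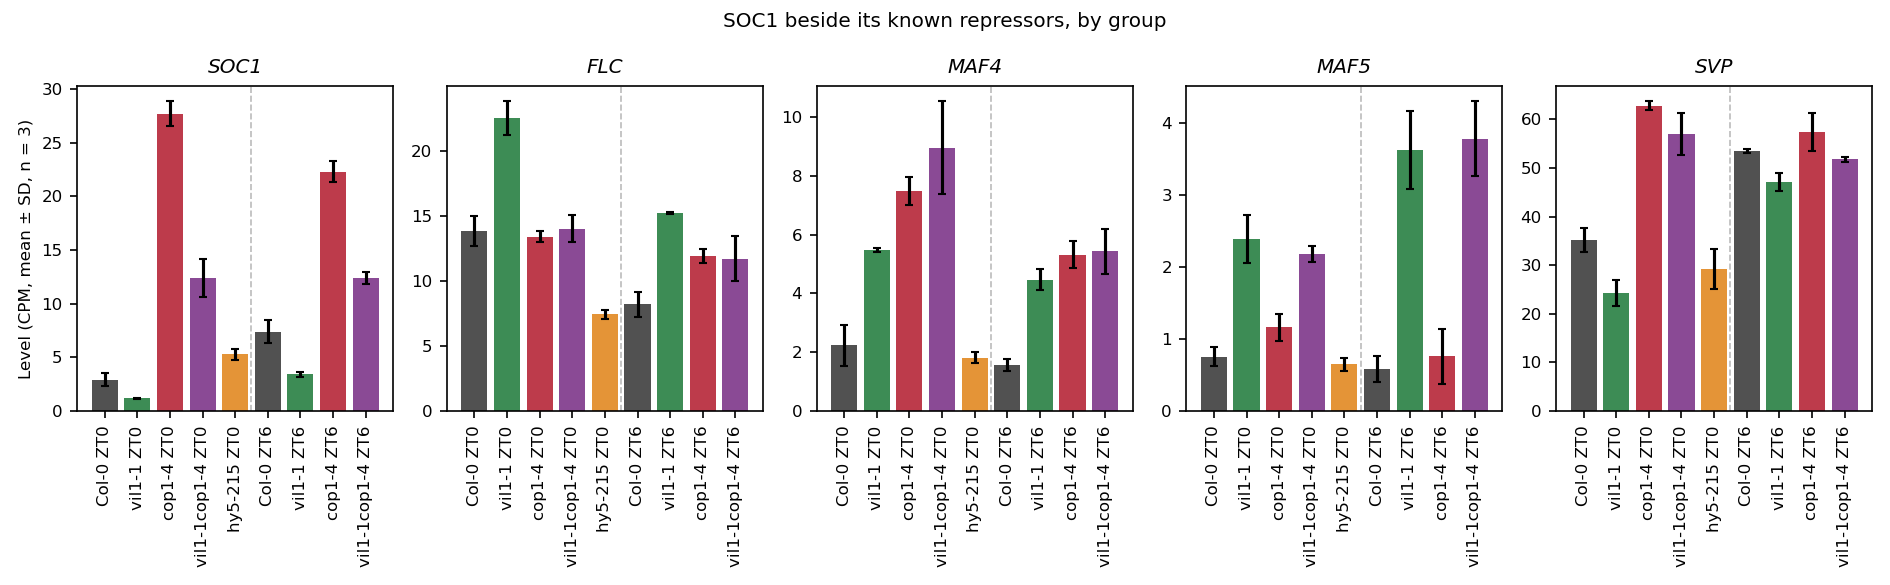
Mean level in CPM (bars from 0, y axis, a separate scale per gene; error bars are SD over 3 libraries) of SOC1 and of the repressor genes FLC, MAF4, MAF5 and SVP in the 9 groups (x axis). SOC1 is lower in each group with vil1-1 than in the matching group without it, whereas FLC is higher in vil1-1 than in Col-0 (22.5 against 13.8 CPM at ZT0) but level between cop1-4 and vil1-1cop1-4 (13.4 and 14).

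From ZT0 to ZT6, SOC1 rose by 1.34 ± 0.13 in Col-0 and by 1.53 ± 0.17 in vil1-1 on the log2 scale (edgeR adjusted p = 5.7e-12 and 2.1e-10). In cop1-4 it changed by −0.31 ± 0.10 (edgeR adjusted p = 0.0059), a call lost without cop1-4 ZT0 replicate 2 or 3 or cop1-4 ZT6 replicate 1 or 2 (edgeR adjusted p = 0.061 to 0.095). In vil1-1cop1-4 the value was −0.01 ± 0.11 (edgeR adjusted p = 0.96). The day effect differed from that of Col-0 by −1.65 ± 0.17 in cop1-4 and by −1.35 ± 0.17 in vil1-1cop1-4 (edgeR adjusted p = 3.7e-11 and 1.1e-08). In hy5-215 at ZT0, SOC1 stood at 5.43, 5.69 and 4.71 CPM, all above the Col-0 libraries, and rose 1.81-fold (0.86 ± 0.14, edgeR adjusted p = 4.3e-06). Seed markers summed to 101 to 111 CPM in hy5-215 and 1.01 to 2.9 in Col-0 at ZT0. Shoot meristem markers summed to 42.7 to 49.5 CPM in hy5-215 and 26.6 to 28.8 in Col-0 at ZT0. Of these, 1 of the 2 tested was called higher, beside 39% of all genes called. The part of either set in this and the other hy5-215 results was not tested.

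FT was nearly absent at ZT0 and low at ZT6. At ZT0 the libraries held 0, 0 and 0 reads in Col-0, 0, 0 and 0 in vil1-1, 1, 0 and 3 in cop1-4, 0, 2 and 1 in vil1-1cop1-4 and 4, 1 and 0 in hy5-215. A total of 0 reads over 3 libraries allows up to 3. At ZT6 they held 8, 2 and 0 in Col-0, 7, 7 and 6 in vil1-1, 19, 19 and 17 in cop1-4 and 18, 13 and 23 in vil1-1cop1-4. The libraries with cop1-4 did not overlap those of Col-0 or vil1-1, which overlapped each other.

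At ZT6 FT rose 7.55-fold in cop1-4 (2.92 ± 0.58, edgeR adjusted p = 3e-05) and 5.58-fold in vil1-1cop1-4 (2.48 ± 0.58, edgeR adjusted p = 0.00032) against Col-0, while vil1-1 differed by 1.04 ± 0.69 (edgeR adjusted p = 0.32). These folds rest on 10 reads in Col-0, and no single library decided the calls. Without Col-0 ZT6 replicate 1 the log2 changes were 4.39 and 3.96, and without Col-0 ZT6 replicate 3 they were 2.32 and 1.88. Against vil1-1, vil1-1cop1-4 was 2.72-fold higher at ZT6 (1.44 ± 0.51, edgeR adjusted p = 0.015), a call lost without vil1-1 ZT6 replicate 2 (edgeR adjusted p = 0.06). From ZT0 to ZT6, FT rose at least 2.94-fold in Col-0, at least 6.7-fold in vil1-1, both against a floor of 3 reads over the group, 11.9-fold in cop1-4 and 13.6-fold in vil1-1cop1-4 (95% exact Poisson interval 4.42 to 68.1, counting error only). Each of the 4 passed the test (edgeR adjusted p = 0.011, 0.00034, 3.2e-05 and 7e-05), and that in Col-0 rested on replicate 1 of ZT6, which held 8 of the 10 reads (edgeR adjusted p = 0.15 without it). Without cop1-4 ZT0 replicate 3 the log2 change in cop1-4 moved from 3.57 to 4.81, and without vil1-1cop1-4 ZT0 replicate 2 that in vil1-1cop1-4 moved from 3.64 to 4.34. FT is expressed in phloem companion cells, whose 4 markers summed to 330 to 351 CPM in Col-0, 213 to 223 in cop1-4 and 217 to 225 in vil1-1cop1-4 at ZT6. Of the 4, 2 were called lower than in Col-0 and 2 did not pass in each of these lines, beside 66.6% and 65.6% of all genes called. None of the 4 was at 0 in any group, and their part in the FT results was not tested. CO, the activator of FT, is given here after its values were seen. It rose at ZT6 in vil1-1 (0.76 ± 0.25), cop1-4 (0.71 ± 0.26) and vil1-1cop1-4 (0.71 ± 0.26) against Col-0 (edgeR adjusted p = 0.027, 0.016 and 0.013).

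TSF, the closest relative of FT, was not tested. Its reads at ZT0 were 3, 7 and 3 in Col-0, 4, 3 and 1 in vil1-1, 0, 0 and 0 in cop1-4, 2, 1 and 5 in vil1-1cop1-4 and 3, 3 and 3 in hy5-215. At ZT6 they were 8, 2 and 2 in Col-0, 3, 2 and 4 in vil1-1, 0, 1 and 0 in cop1-4 and 0, 2 and 3 in vil1-1cop1-4. The 6 cop1-4 libraries together held 1 read, and no other group was as low. Counted against the floor of 3 reads over the group, TSF was at least 3.19-fold lower in cop1-4 than in Col-0 at ZT0, and at ZT6 the ratio was 0.118 (95% exact Poisson interval 0.00276 to 0.797). In vil1-1cop1-4, where FT was also high at ZT6, TSF held 8 reads at ZT0 and 5 at ZT6.

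FUL, a MADS-box gene that marks the change to flowering, held 0 to 2 reads in every library and 14 in all, with 15 libraries at 0. No difference was detectable at this depth. AGL24, a MADS-box partner that raises SOC1, held 18, 9 and 14 reads in Col-0 at ZT0 and 15, 16 and 14 at ZT6. In vil1-1 it held 8, 6 and 9 and then 5, 2 and 6. The latter lay below all Col-0 libraries of ZT6, a fall of 1.70 ± 0.53 on the log2 scale (edgeR adjusted p = 0.017). Leaving out replicate 2 of Col-0 at ZT6 (edgeR adjusted p = 0.084), or replicate 2 of vil1-1 at ZT6 (edgeR adjusted p = 0.14), ended the call. In cop1-4 AGL24 held 6, 12 and 17 reads at ZT0 and 12, 11 and 11 at ZT6, in vil1-1cop1-4 5, 13 and 12 and then 4, 2 and 15, and in hy5-215 10, 4 and 3. These did not pass the test against Col-0 (edgeR adjusted p = 0.70, 0.89, 0.82, 0.058 and 0.066). In vil1-1cop1-4 at ZT6 replicate 3 alone was high, and without it AGL24 was lower than in Col-0 by −2.04 (edgeR adjusted p = 0.0051). Without hy5-215 replicate 1 the hy5-215 value was −1.73 (edgeR adjusted p = 0.035).

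SEP3, a co-factor of floral organ genes, was low but read in every library. At ZT0 it held 27, 14 and 13 reads in Col-0, 21, 9 and 12 in vil1-1, 19, 35 and 29 in cop1-4, 10, 24 and 12 in vil1-1cop1-4 and 23, 16 and 13 in hy5-215. At ZT6 it held 49, 16 and 22 in Col-0, 6, 6 and 8 in vil1-1, 29, 20 and 35 in cop1-4 and 25, 9 and 15 in vil1-1cop1-4. The vil1-1 libraries of ZT6 lay below all Col-0 libraries, a change of −2.01 ± 0.43 (edgeR adjusted p = 0.00044), which kept its call without any single library. The day effect in vil1-1 did not differ from that in Col-0 by the test (−1.52 ± 0.59, edgeR adjusted p = 0.2). In cop1-4 SEP3 rose 2.08-fold at ZT0 (1.06 ± 0.36, edgeR adjusted p = 0.0084), a call lost without Col-0 ZT0 replicate 3 (edgeR adjusted p = 0.057) or cop1-4 ZT0 replicate 2 (edgeR adjusted p = 0.092). At ZT6 its value there was 0.47 ± 0.33 (edgeR adjusted p = 0.22), and 0.93 without Col-0 ZT6 replicate 1 (edgeR adjusted p = 0.033). At ZT6 vil1-1cop1-4 lay between the single mutants, 1.30 ± 0.46 above vil1-1 and −1.18 ± 0.36 against cop1-4 (edgeR adjusted p = 0.015 and 0.019). The first was lost without vil1-1 ZT6 replicate 2 or vil1-1cop1-4 ZT6 replicate 1 (edgeR adjusted p = 0.077 and 0.14), the second without cop1-4 ZT6 replicate 3 or vil1-1cop1-4 ZT6 replicate 2 or 3 (edgeR adjusted p = 0.1, 0.061 and 0.096).

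**Figure D3:**
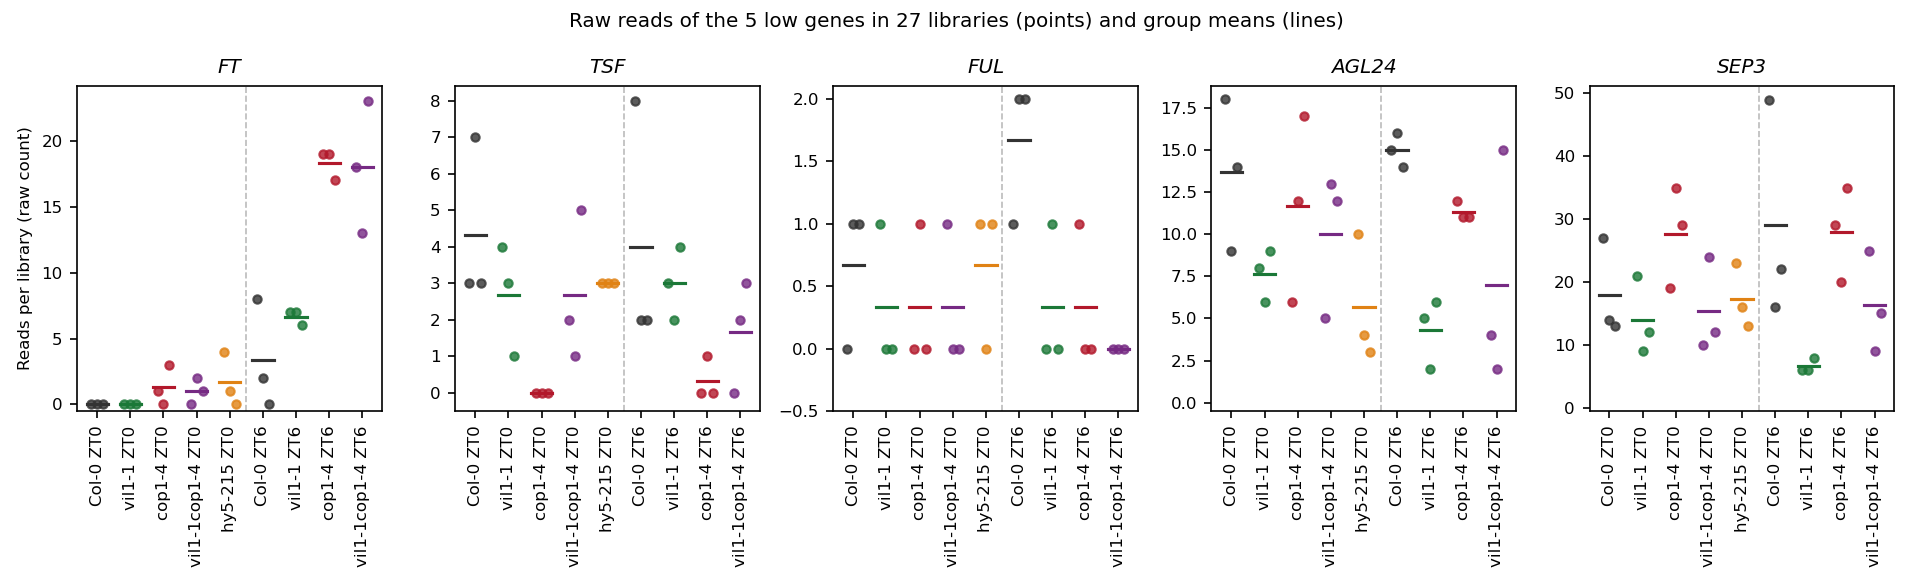
Raw reads per library (y axis, a separate scale per gene) of FT, TSF, FUL, AGL24 and SEP3 in 27 libraries (points) by group (x axis), with group means as lines. FT is near 0 at ZT0 and reaches 13 to 23 reads at ZT6 in cop1-4 and vil1-1cop1-4, TSF is at 0 or 1 in the 6 cop1-4 libraries, and FUL does not exceed 2.

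TEM1 and TEM2, which bind and repress FT, moved together, and both fell between ZT0 and ZT6 in Col-0 and vil1-1. In CPM, TEM1 stood at ZT0 at 75.7, 74.4 and 71.1 in Col-0, 96.5, 102 and 91.8 in vil1-1, 131, 138 and 128 in cop1-4, 117, 118 and 131 in vil1-1cop1-4 and 107, 119 and 125 in hy5-215. At ZT6 it stood at 20.1, 14.1 and 18.9 in Col-0, 23.7, 23.6 and 25.4 in vil1-1, 125, 111 and 87.3 in cop1-4 and 152, 159 and 126 in vil1-1cop1-4. The Col-0 and vil1-1 libraries of ZT6 lay far below all others. TEM2 stood at 133, 128 and 122 CPM in the Col-0 libraries of ZT0, 138, 135 and 128 in vil1-1, 148, 154 and 153 in cop1-4, 156, 156 and 158 in vil1-1cop1-4 and 146, 171 and 156 in hy5-215. At ZT6 it stood at 31.5, 25.9 and 28.8 in Col-0, 35.8, 35.4 and 36.7 in vil1-1, 118, 103 and 75.5 in cop1-4 and 166, 165 and 130 in vil1-1cop1-4. Over the 9 group means of log2 CPM, the pair correlated at r = 0.969, a description over groups that share libraries and depth between the genes.

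From ZT0 to ZT6 TEM1 fell 4.12-fold in Col-0 (log2 change −2.04 ± 0.13) and 4.01-fold in vil1-1 (−2.00 ± 0.12), with edgeR adjusted p = 4.5e-12 and 3.9e-12. TEM2 fell 4.43-fold in Col-0 (−2.15 ± 0.12) and 3.72-fold in vil1-1 (−1.90 ± 0.12), with edgeR adjusted p = 1.2e-12 and 8.1e-12. In cop1-4 the changes were smaller, −0.29 ± 0.11 for TEM1 and −0.62 ± 0.11 for TEM2 (edgeR adjusted p = 0.028 and 7.7e-05). In vil1-1cop1-4 they were 0.26 ± 0.11 and −0.03 ± 0.11 (edgeR adjusted p = 0.047 and 0.85). The TEM1 call in cop1-4 was lost with its 2 groups fitted alone (edgeR adjusted p = 0.056), with DESeq2's size factors (edgeR adjusted p = 0.053) and without any of cop1-4 ZT0 replicates 1, 2 and 3 and ZT6 replicates 2 and 3 (edgeR adjusted p = 0.094 to 0.39), and that in vil1-1cop1-4 with no filter on low counts (edgeR adjusted p = 0.06) and without replicate 1 or 2 of either time (edgeR adjusted p = 0.066 to 0.099). The day effect differed from that of Col-0 by 1.75 ± 0.17 in cop1-4 and 2.30 ± 0.17 in vil1-1cop1-4 for TEM1 (edgeR adjusted p = 2.3e-08 and 2.7e-10). For TEM2 it differed by 1.53 ± 0.17 and 2.12 ± 0.16 (edgeR adjusted p = 1.4e-07 and 8.2e-10).

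At ZT6 TEM1 was 6.03-fold higher in cop1-4 and 8.13-fold higher in vil1-1cop1-4 than in Col-0 (2.59 ± 0.13 and 3.02 ± 0.13, edgeR adjusted p = 1.3e-13 and 9.5e-15). TEM2 was 3.43-fold and 5.32-fold higher (1.78 ± 0.12 and 2.41 ± 0.12, edgeR adjusted p = 5.4e-11 and 3.1e-13). FT, the gene that both repress, was higher in the same 2 groups. At ZT0 TEM1 rose in cop1-4 (0.84 ± 0.11), vil1-1cop1-4 (0.72 ± 0.11) and hy5-215 (0.66 ± 0.11), with edgeR adjusted p = 1.2e-06, 9.2e-06 and 7.4e-05. TEM2 values at ZT0 were 0.25 ± 0.11, 0.29 ± 0.11 and 0.30 ± 0.11 in the same lines (edgeR adjusted p = 0.059, 0.027 and 0.038). The value in cop1-4 passed with the groups fitted alone (edgeR adjusted p = 0.00062) and by DESeq2 (adjusted p = 0.036). The last 2 calls did not hold when libraries were left out: that in vil1-1cop1-4 was lost without Col-0 ZT0 replicate 2 or 3 or any of its own 3 (edgeR adjusted p = 0.052 to 0.086), and that in hy5-215 without any Col-0 ZT0 replicate or its own replicate 2 or 3 (edgeR adjusted p = 0.054 to 0.15). TMM factors at ZT0 were 1.16 to 1.19 in Col-0, 0.77 to 0.813 in cop1-4 and 0.796 to 0.799 in vil1-1cop1-4. The size and sign of TEM2 changes this small in the 2 lines with cop1-4 therefore depend on the scaling. The 3 mesophyll markers summed to 29900 to 34700 CPM in cop1-4, 33600 to 35400 in vil1-1cop1-4 and 14300 to 14900 in Col-0 at ZT0. At ZT6 the sums were 24600 to 24900, 24500 to 29600 and 19200 to 19500 CPM. Of the 3, RBCS1A was higher than in Col-0 in both lines at both times (by 1.55 in cop1-4 at ZT0 and 0.85 at ZT6 on the log2 scale), CAB3 was lower in all 4 comparisons (−1.67 and −0.95 in cop1-4), and LHCB2.1 was lower at ZT6 and did not pass at ZT0. None was at 0. Their part in these results was not tested.

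vil1-1 had a small effect on TEM1. It was 1.31-fold and 1.35-fold higher than in Col-0 at ZT0 and ZT6 (0.39 ± 0.11 and 0.43 ± 0.13, edgeR adjusted p = 0.029 and 0.024), and the libraries of each time did not overlap. The ZT0 call was lost without any Col-0 ZT0 replicate or vil1-1 ZT0 replicate 1 or 2 (edgeR adjusted p = 0.063 to 0.12), and the ZT6 call without replicate 2 of Col-0 at ZT6 or replicate 1 or 3 of vil1-1 (edgeR adjusted p = 0.051 to 0.11). TEM2 in vil1-1 differed by 0.07 ± 0.11 and 0.32 ± 0.13 (edgeR adjusted p = 0.81 and 0.083), and the second passed with the groups fitted alone (edgeR adjusted p = 0.00012) and by DESeq2 (adjusted p = 0.011). At ZT6 vil1-1cop1-4 exceeded cop1-4 by 0.43 ± 0.11 for TEM1 and 0.64 ± 0.11 for TEM2 (edgeR adjusted p = 0.0093 and 0.00047). Both calls were lost with these 2 groups fitted alone (edgeR adjusted p = 0.11 and 0.12), and that of TEM1 also without cop1-4 ZT6 replicate 3 (edgeR adjusted p = 0.06), the lowest of its group. At ZT0 vil1-1cop1-4 exceeded vil1-1 in TEM1 by 0.33 ± 0.11 (edgeR adjusted p = 0.013), a call lost without vil1-1 ZT0 replicate 3 or vil1-1cop1-4 ZT0 replicate 3 (edgeR adjusted p = 0.051 and 0.08).

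**Figure D4:**
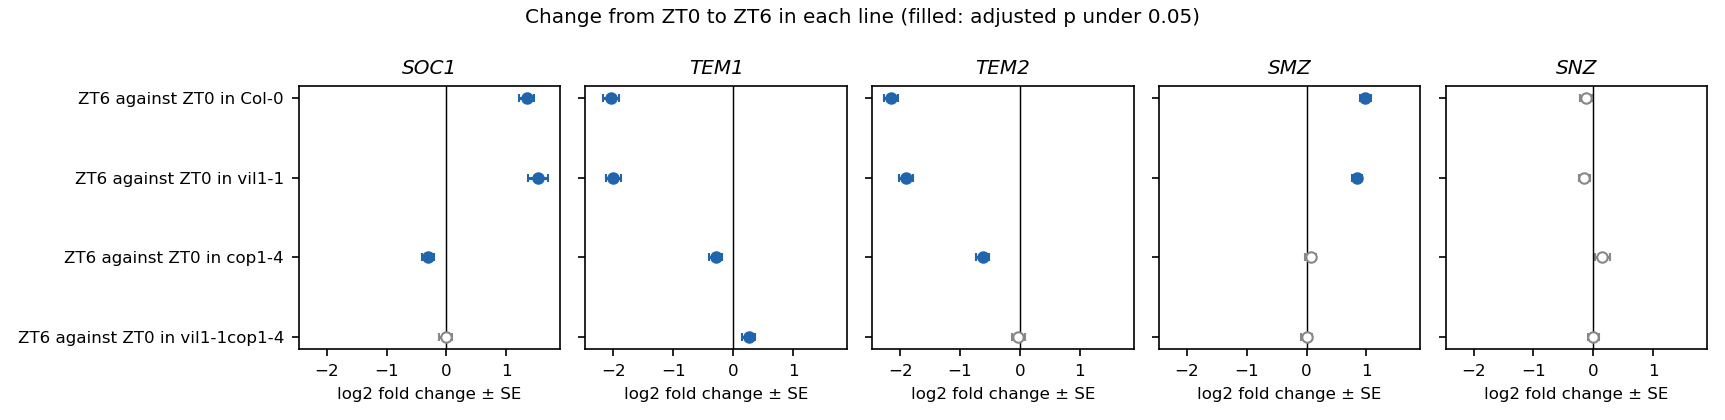
Change from ZT0 to ZT6 as log2 fold change (x axis, one scale for all panels) with SE bars for SOC1, TEM1, TEM2, SMZ and SNZ in Col-0, vil1-1, cop1-4 and vil1-1cop1-4 (rows); filled points have an edgeR adjusted p under 0.05. Col-0 and vil1-1 show a rise of SOC1 and SMZ and a fall of TEM1 and TEM2 of about −2, and the 2 lines with cop1-4 lie near 0 by comparison.

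SMZ also lost its difference between times of day in cop1-4. In CPM, the ZT0 libraries stood at 11.5, 12 and 10.3 in Col-0, 11.4, 13.1 and 11.5 in vil1-1, 9.25, 10.9 and 9.76 in hy5-215, 19.6, 21.1 and 21.9 in cop1-4 and 18.9, 21.2 and 19.9 in vil1-1cop1-4. At ZT6 all 12 libraries lay between 18.9 and 25 CPM and the 4 groups overlapped. SMZ rose by 0.98 ± 0.09 on the log2 scale from ZT0 to ZT6 in Col-0 and by 0.84 ± 0.09 in vil1-1 (edgeR adjusted p = 1.5e-12 and 7.7e-11). In cop1-4 and vil1-1cop1-4 the values were 0.07 ± 0.09 and 0.00 ± 0.09 (edgeR adjusted p = 0.53 and 1). The day effect differed from that of Col-0 by −0.91 ± 0.13 and −0.98 ± 0.13 (edgeR adjusted p = 1.8e-07 and 2.7e-08). At ZT0 SMZ was 1.86-fold higher in cop1-4 and 1.79-fold higher in vil1-1cop1-4 than in Col-0 (0.90 ± 0.10 and 0.84 ± 0.10, edgeR adjusted p = 6.3e-11 and 3.6e-10). The differences of vil1-1 from Col-0 at ZT0 and ZT6 were 0.09 ± 0.10 and −0.04 ± 0.09 (edgeR adjusted p = 0.65 and 0.79).

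SNZ, a close relative of SMZ, was higher in the lines with vil1-1 and showed no called change with time of day. In CPM, the ZT0 libraries stood at 14.3, 15.3 and 15.1 in Col-0, 41.7, 47.6 and 41.6 in vil1-1, 10.9, 9.1 and 11.7 in cop1-4, 24.7, 25.9 and 22.8 in vil1-1cop1-4 and 11, 12 and 7.34 in hy5-215. At ZT6 it stood at 13.7, 13.8 and 13.3 in Col-0, 40.7, 38.2 and 38.9 in vil1-1, 11, 11.3 and 12.8 in cop1-4 and 26.3, 23.1 and 24.1 in vil1-1cop1-4. At each time the vil1-1 libraries were highest and the vil1-1cop1-4 libraries next, without overlap. SNZ rose 2.93-fold in vil1-1 at ZT0 and 2.88-fold at ZT6 against Col-0 (1.55 ± 0.09 and 1.53 ± 0.09, edgeR adjusted p = 1.8e-15 and 2.7e-15). Against cop1-4, vil1-1cop1-4 was 2.32-fold and 2.1-fold higher (1.21 ± 0.11 and 1.07 ± 0.10, edgeR adjusted p = 6.4e-11 and 5.6e-10). The effect of vil1-1 was smaller on the cop1-4 background at ZT6, by −0.46 ± 0.14 (edgeR adjusted p = 0.021). Leaving out replicate 3 of Col-0, replicate 1 of vil1-1 or replicate 3 of cop1-4, all of ZT6, ended that call (edgeR adjusted p = 0.051, 0.05 and 0.086), and the ZT0 value of −0.34 ± 0.14 did not pass (edgeR adjusted p = 0.16). At ZT0 SNZ fell by 0.49 ± 0.11 in cop1-4 and by 0.56 ± 0.11 in hy5-215 (edgeR adjusted p = 0.00017 and 6e-05). No line showed a change from ZT0 to ZT6 past the test, with values from −0.15 to 0.15, although vil1-1 passed with its 2 groups fitted alone (−0.18, edgeR adjusted p = 0.0084). The 3 seed markers were higher in the same comparisons of vil1-1. They summed to 9.02 to 19.9 CPM in vil1-1 against 1.01 to 2.9 in Col-0 at ZT0, and to 8.04 to 17.4 against 0.928 to 1.75 at ZT6. In vil1-1cop1-4 they summed to 3.44 to 6.71 CPM against 0.229 to 0.335 in cop1-4 at ZT0, and to 4.06 to 5.78 against 0.327 to 0.359 at ZT6. All 3 passed as higher in each of these 4 comparisons, and none was at 0. In hy5-215 they summed to 101 to 111 CPM, and SNZ was lower than in Col-0. Their part in the SNZ results was not tested.

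**Figure D5:**
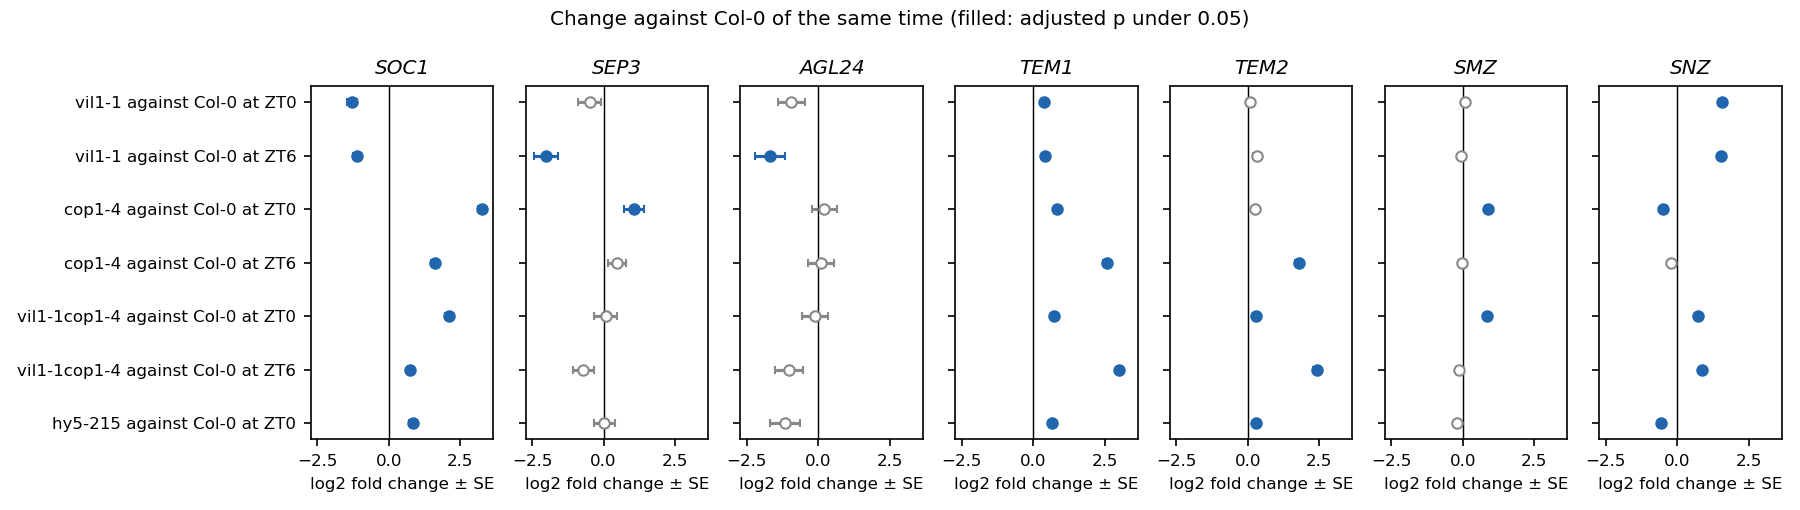
Change against Col-0 of the same time as log2 fold change (x axis, one scale for all panels) with SE bars for 7 tested members in 7 comparisons (rows); filled points have an edgeR adjusted p under 0.05. SOC1 lies below 0 in vil1-1 and above it in every line with cop1-4, SNZ is at 1.55 and 1.53 in vil1-1, and TEM1 and TEM2 reach 3.02 and 2.41 in vil1-1cop1-4 at ZT6.

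Of the 8 members tested, vil1-1 changed 3 at ZT0 (SOC1, SNZ and TEM1, beside 9.97% of all genes tested) and 5 at ZT6 (those 3, AGL24 and SEP3, beside 21% of all genes). The counts that follow are also over these 8. In cop1-4 5 members were called at ZT0 and 4 at ZT6, where 68.5% and 66.6% of all genes were called, so these counts do not set the members apart. In vil1-1cop1-4 5 were called at each time, beside 68.5% and 65.6% of all genes, and in hy5-215 4, beside 39% of all genes. These comparisons share the Col-0 libraries. From ZT0 to ZT6 5 members were called in Col-0 and 5 in vil1-1, 4 in cop1-4 and 2 in vil1-1cop1-4, beside 70.9%, 68.9%, 63.5% and 64.3% of all genes. Against cop1-4, vil1-1cop1-4 had 2 members called at ZT0 and 5 at ZT6 (17.4% and 17.8% of all genes), and against vil1-1 it had 4 and 6 (68% and 59%).

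In tests of a difference between differences, 4 members were called for the day effect in cop1-4 and the same 4 in vil1-1cop1-4 (46.6% and 49.6% of all genes), which were SOC1, TEM1, TEM2 and SMZ. For the day effect in vil1-1, 0 members were called by edgeR (2.24% of all genes), with 1 at an unadjusted p under 0.05, SEP3, and 0 by DESeq2. For the effect of vil1-1 across the 2 backgrounds, 0 were called at ZT0 (7.11% of all genes), with 2 at an unadjusted p under 0.05 and 1 by DESeq2. That gene was TEM1 (−0.51 ± 0.16, edgeR adjusted p = 0.056), which also passed without vil1-1cop1-4 ZT0 replicate 3 (edgeR adjusted p = 0.049). At ZT6 1 member was called, SNZ, beside 15.3% of all genes.

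The relatives of SMZ, SNZ and the TEM genes were split. Of 6 other AP2-type and RAV genes, 2 rose and 4 fell in cop1-4 at each time and likewise in vil1-1cop1-4, with a median log2 change of −0.80 at ZT0 and −0.54 at ZT6 in cop1-4 against 0 and −0.02 over all genes. Of all genes, 65.6% to 68.5% were called in these 4 comparisons. RAV1, a RAV gene related to the TEM pair, rose 4.5-fold in cop1-4 at ZT0 (2.17 ± 0.08, edgeR adjusted p = 8.4e-23). EDF3, the other RAV gene of the list, was among those that fell in that comparison. TOE3, an AP2-type gene with a miR172 site, fell 8.91-fold there (−3.16 ± 0.33, edgeR adjusted p = 2.9e-11), and AP2 itself, which also sets floral organs, fell 1.91-fold (−0.94 ± 0.10, edgeR adjusted p = 5.7e-11). SMZ, with a like site, was higher in that comparison and SNZ lower. In vil1-1, where SNZ rose 2.93-fold at ZT0, 2 of the 6 rose at each time and 4 did not pass, beside 9.97% and 21% of all genes called. At ZT0 they were RAV1 (0.47 ± 0.08 at ZT0, edgeR adjusted p = 0.00012) and TOE2 (0.28 ± 0.06, edgeR adjusted p = 6e-04), while AP2 and TOE3 were at 0.05 ± 0.09 and 0.01 ± 0.20 (edgeR adjusted p = 0.84 and 1). From ZT0 to ZT6 in Col-0 all 6 rose, with a median of 0.73 against 0.02 over all genes, as SMZ did and TEM1 and TEM2 did not. Of all genes, 70.9% were called in that comparison.

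Of 20 regulators and partners of the integrators, 5 rose and 1 fell in vil1-1 at ZT0 (9.97% of all genes were called), and 8 rose and 0 fell at ZT6 (21%), where the median was 0.13 against −0.01 over all genes. FLC, MAF4 and MAF5 had the smallest p among those that rose at both times, and MFT, a relative of FT that acts in seeds and is named after its values were seen, had a larger change than any of them at ZT0 (2.36 ± 0.38, edgeR adjusted p = 1.6e-05, from 21 reads over 3 libraries to 120). SVP fell at ZT0 (−0.53 ± 0.08, edgeR adjusted p = 2.4e-06). In cop1-4 6 rose and 7 fell at ZT0, and 9 rose and 5 fell at ZT6, beside 68.5% and 66.6% of all genes called, so these counts do not set the list apart. FKF1, a blue-light receptor that allows CO to be made, rose in cop1-4 by 3.08 ± 0.46 at ZT0 (edgeR adjusted p = 2e-07). At ZT6 its rise there was 0.67 ± 0.07 (edgeR adjusted p = 8.3e-11). Col-0 itself showed a 639-fold rise of FKF1 from ZT0 to ZT6 (edgeR adjusted p = 6.9e-35), so the ZT0 value compares low levels. In cop1-4 at ZT0 CDF1, which represses CO, fell by 0.93 ± 0.11 (edgeR adjusted p = 3.1e-10), and FD, the bZIP partner of FT, fell by 1.09 ± 0.26 (edgeR adjusted p = 0.00036). At ZT6 CDF2, another repressor of CO, rose in cop1-4 (1.58 ± 0.11, edgeR adjusted p = 2.8e-16). In hy5-215 5 rose and 4 fell, beside 39% of all genes called, among the latter FLC (−0.90 ± 0.10, edgeR adjusted p = 9.6e-10), while SOC1 was higher.

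Of 20 genes of floral meristems, floral organs and the SPL family, 8 could be tested, and these had to be read in some group. In cop1-4 at ZT0, 6 of the 8 rose and 2 fell, with a median of 1.14 against 0 over all genes and 68.5% of all genes called. At ZT6 3 rose, 1 fell and 4 did not pass there, with a median of 0.52 against −0.02 and 66.6% of all genes called. In vil1-1cop1-4 4 rose and 2 fell at ZT0, and 3 rose and 2 fell at ZT6 (medians 0.77 and 0.15), beside 68.5% and 65.6% of all genes called. PI, a petal and stamen identity gene, stood at 0.621 ± 0.313 CPM in Col-0 and 10.9 ± 0.924 in cop1-4 at ZT0 (4.14 ± 0.37, edgeR adjusted p = 3.3e-10). It stood at 4.38 ± 0.74 in vil1-1cop1-4 and 0.191 ± 0.0588 in vil1-1, the same order of these 4 groups as SOC1. SEP4, a relative of SEP3, rose 2.3-fold in cop1-4 (1.20 ± 0.14, edgeR adjusted p = 5.8e-10) and fell in vil1-1 at ZT0 (−0.79 ± 0.15, edgeR adjusted p = 0.00034) and ZT6 (−0.96 ± 0.19, edgeR adjusted p = 0.00016). SPL4, a known activator of flowering, rose by 1.73 ± 0.22 in cop1-4 at ZT0 with edgeR adjusted p = 3.4e-09, and SPL3, its relative, fell by 1.38 ± 0.18 (edgeR adjusted p = 1.2e-08). AGL42, a close relative of SOC1, went the other way from it in cop1-4 at ZT0, with 54 reads in all in Col-0 and 0 in cop1-4 (edgeR adjusted p = 5.5e-07). It was also lower than in Col-0 in cop1-4 at ZT6, in vil1-1cop1-4 at both times and in hy5-215, where SOC1 was higher. In vil1-1 at ZT6 AGL42 was lower (−1.90 ± 0.49, edgeR adjusted p = 0.0039), as SOC1 was. The meristem genes LFY and AP1 were not tested, and AP1 held 1 read in all 27 libraries.

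The genes whose 9 group means were most like those of each abundant member were found among 7078 candidates. They are named as a description over 9 points. SOC1 was most like PGL5 (r = 0.98), GLYR2 (0.97) and MBR1 (0.961). TEM1 was most like EXO70B1 (0.991), TET8 (0.981) and POD1 (0.976), and TEM2 most like ATL6 (0.993), WRKY22 (0.989) and EXO70B1 (0.986). SMZ was most like WTF1 (0.993), PDE312 (0.993) and OCP3 (0.991). SNZ had less close matches in CSD1 (0.953), DUR3 (0.867) and CYP82F1 (0.859).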

How the data were processed

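The deposited files hold whole-number read counts per gene and library, not normalised by the authors. The genome was TAIR10 and the tools STAR, FastQC and edgeR, of no stated version, per the submitters' processing notes. The 5 lines that name no gene (3.76 to 9.18% of reads) were left out. Here, edgeR 4.0.16 in R 4.3.3 kept 21448 genes by filterByExpr over 9 groups, scaled sizes by TMM and fitted a robust quasi-likelihood model with 1 coefficient per group (18 residual degrees of freedom). Unless another setting, a library left out or DESeq2 is named, each adjusted p comes from this test. The adjustment is Benjamini-Hochberg over all genes of a comparison, with a threshold of 0.05. Members and gene lists were chosen with earlier results of these data known. Named were the members, up to 3 called genes per list, direction and comparison with the smallest p, and the 3 most alike genes per member of at least 1 CPM (candidates of at least 5 CPM, log2 of CPM plus 0.5). TMM factors were highest in Col-0 and vil1-1 at ZT0 (1.16 to 1.19) and lowest in cop1-4 and vil1-1cop1-4 at ZT0 (0.77 to 0.813), so small changes between them depend on the scaling. Replicates differed by more than sampling noise (chi-square per degree of freedom 2.32 to 8.18). Exon lengths and sequences are RefSeq's for TAIR10.1, matched by locus identifier, a release that may differ from the one counted. Alternatives were DESeq2 1.42.0, its size factors, no filter, the compared groups alone, a replicate block and each library left out. The method was tested on simulated data.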

Additional observations from a re-analysis of the deposited data

Results flagged for a closer look

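For 9 values a difference between differences passed the edgeR test, each with 3 libraries per group. For the change from ZT0 to ZT6, SOC1 differed from Col-0 by −1.65 in cop1-4 and −1.35 in vil1-1cop1-4 on the log2 scale, TEM1 by 1.75 and 2.30, TEM2 by 1.53 and 2.12, and SMZ by −0.91 and −0.98. These 8 values kept their direction and their call under every alternative run. The effect of vil1-1 on SNZ at ZT6 differed between the cop1-4 and Col-0 backgrounds by −0.46, a call that 3 single libraries decide.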

How the results depend on the processing

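Over 5 other settings and 27 libraries left out in turn, 1985 values of members were recomputed: 1897 kept their side of the threshold, 55 lost the call, 33 gained it and 0 called values reversed. Of 73 called values, 56 kept the call throughout. The number of members called from ZT0 to ZT6 in vil1-1cop1-4 was 2, and 1 both with no filter and with the replicate block. For vil1-1cop1-4 against cop1-4 at ZT6 it was 5, and 3 with those groups fitted alone, where TEM1 and TEM2 lost the call. For the day effect in vil1-1 it was 0, and 1 in the groups alone; for vil1-1 across backgrounds at ZT0 it was 0, and 1 in the groups alone and by DESeq2. With a library left out, the count ranged from 1 to 3 for ZT6 against ZT0 in vil1-1cop1-4, from 2 to 3 for the same in cop1-4 (4 with all libraries), from 3 to 5 for vil1-1 against Col-0 and for vil1-1cop1-4 against cop1-4 at ZT6, and for vil1-1 across backgrounds from 0 to 1 at ZT0 and 0 to 2 at ZT6. Over all genes, the day effect in vil1-1 had 480 calls, 1111 in the groups alone and 244 to 593 with a library left out, and vil1-1cop1-4 against cop1-4 at ZT6 had 3827, 2395 alone and no fewer than 2344. The cause was not tested. With no filter on low counts TSF, otherwise untested, passed as lower in cop1-4 at ZT0 (edgeR adjusted p = 0.0083). Same-numbered replicates correlated between −0.133 and 0.128 and only 6 of 27 libraries correlated best with their own number. No pairing by number was seen, and with 3 libraries per group this check cannot exclude one. Depth limits FT, TSF, FUL, AGL24 and SEP3, at 0 to 49 reads a library.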
